A study of Bos taurus with 47 samples.

Results

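In cattle embryos made by in vitro fertilization (IVF), 106 of the 20526 genes measured came on at the 8-cell stage and were still on in the blastocyst. The members were chosen by measured group medians. A gene belonged to this set when its median normalized count was at most 20 both in oocytes and in IVF 2-cell embryos and at least 60 in IVF 8-cell embryos. Its IVF morula and IVF blastocyst medians also each had to reach a share of at least 0.5 of the 8-cell median. Of the 198 genes that met the conditions up to the 8-cell stage, 106 met the condition on later stages and 92 did not. The choice used measured values of oocytes and of IVF embryos from the 2-cell stage to the blastocyst, so the course of the set in those 5 groups is a description and was not tested. Members were tested only between groups that took no part in the choice, which were the embryos and cells made by nuclear transfer, the cells derived from IVF blastocysts and the fibroblasts.

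An early embryo is first run by transcripts stored in the oocyte, and its own genome is switched on in steps, with the main wave in cattle around the 8-cell stage. Genes switched on in this wave either fade again as the embryo compacts into a morula or stay on into the blastocyst, where an outer trophectoderm and an inner cell mass have formed. In somatic cell nuclear transfer (scNT) the genome to be switched on comes from a differentiated cell, so the same genes have to be started from a chromatin state that the oocyte must first reset. Members are given by Ensembl identifiers, which the files do not pair with gene names, and 0 of them matched the reference table used here. No member is therefore given a function, no pathway or marker list could be applied, and the cell types named in the labels could not be checked against their markers.

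The mRNA sequencing series held 47 libraries in 12 groups with 4 libraries each, except scNT morulae with 3 (replicates 2, 3 and 4). Oocytes were matured in culture to metaphase II. IVF embryos came from such oocytes and thawed semen of a Holstein bull, and were grown over cumulus cells in synthetic oviductal fluid. For scNT, a serum-starved fibroblast was fused by an electric pulse with an oocyte whose own chromosomes had been removed. Fibroblasts were primary ear cultures of a Brahma Spanish bull cross. Whether these cultures were also the nuclear donors, and how the cells derived from blastocysts were grown, were points not given in the sources used here. If they were the donors, method and genetic origin cannot be told apart between IVF and scNT embryos. Embryos were pools of 20, taken on days 2, 3, 6 and 8 for the 2-cell, 8-cell, morula and blastocyst stages. The labels give conflicting numbers of pools for each stage. Since no label assigns a replicate to its own animal or culture, a p-value here reflects library-to-library spread alone, which may be technical. A normalized count is a level relative to the other transcripts of a library, so in these bulk samples fewer cells with a transcript and less of it per cell cannot be told apart.

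Some libraries stood apart in ways that bear on the set. Depth was between 4608099 and 16642362 recovered reads in 46 of the libraries. IVF 2-cell replicate 3 had 36 members at 60 or more, against 0 in the other IVF 2-cell libraries. IVF 8-cell replicate 4 had 22 members at 60 or more, against 78, 106 and 94 in replicates 1, 2 and 3. In fibroblast replicate 3 the members held 0.165% of the library total, against 0.380% to 0.404% in the other fibroblast libraries. Leaving IVF 2-cell replicate 3 out of the choice gave 164 members, among them all 106, and leaving out IVF 2-cell replicate 4 gave 159, among them 105 of the 106. For the 164, counts of calls are given beside each test.

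In the groups that defined it, the set went from near 0 to a broad middle level. The median over members was 8.18 in oocytes, 10.98 in IVF 2-cell embryos and 97.6 in IVF 8-cell embryos. It was then 224 in IVF morulae and 239 in IVF blastocysts. Together the members made up 0.0116% of the library total in the median oocyte library, 0.214% in the median IVF 8-cell library and 0.725% in the median IVF blastocyst library.

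Most members had higher medians after the stage at which they came on. The IVF morula median was above the IVF 8-cell median for 87 of 106 members, and the same count, 87, was above it in IVF blastocysts. In 27 members the IVF blastocyst median was at least 4 times the 8-cell median. From the IVF morula to the IVF blastocyst the median was higher for 69 members and not higher for 37. Levels in IVF 8-cell embryos ran from 60.1 to 1201, with quartiles of 76.8 and 171. The members nearest above the limit of 60 had medians of 60.1, 60.9 and 61.3, and the otherwise qualifying genes nearest below it had 59.6, 59.6 and 59.55.

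**Figure D1:**
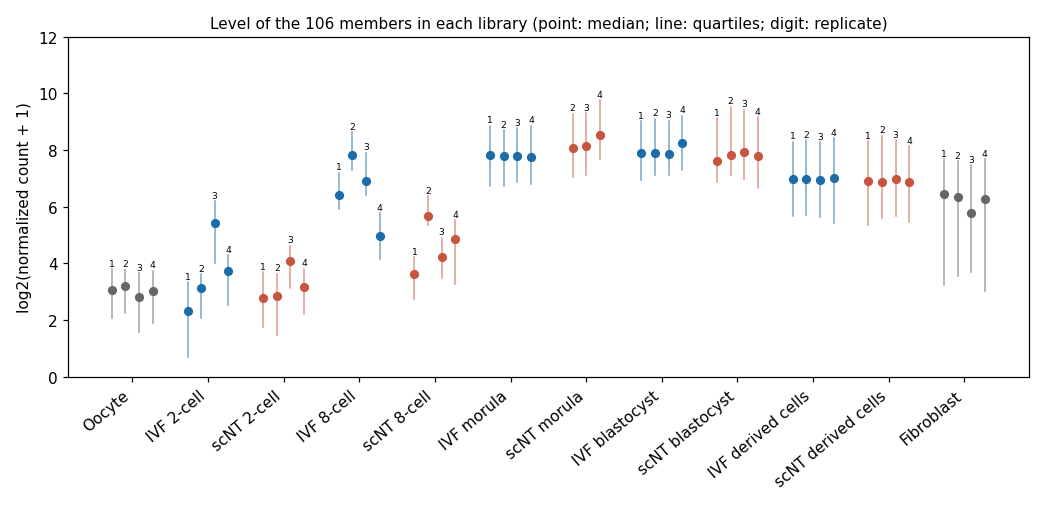
Median (point) and quartiles (line) over the 106 members of log2(normalized count + 1) in each of the 47 libraries, by group, with the replicate number above each line (IVF blue, scNT red, oocytes and fibroblasts grey). IVF 8-cell libraries spread from 4.99 to 7.83 and scNT 8-cell libraries from 3.62 to 5.68, whereas IVF morulae lie between 7.75 and 7.83.

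The member with the highest IVF 8-cell median was ENSBTAG00000002065, by a normalized count that is not scaled to gene length and so gives no order of abundance between genes. In normalized counts it held 0, 0.5, 0.6 and 0 in oocytes, 1, 1.9, 41.6 and 0.6 in IVF 2-cell embryos, and 730, 3364, 1672 and 315 in IVF 8-cell embryos. It then held 1589 to 1758 in IVF morulae and 2009 to 2441 in IVF blastocysts. Only IVF 2-cell replicate 3 stood above the oocyte range by more than a few reads, and no IVF 8-cell library overlapped the IVF 2-cell libraries. The next highest member, ENSBTAG00000015061, had 362, 1844, 847 and 59.5 in IVF 8-cell embryos against at most 2.9 in any IVF 2-cell library. It then held 1441 to 1587 in IVF morulae and 2849 to 3560 in IVF blastocysts, with no overlap between any of these 3 stages other than the reach of IVF 8-cell replicate 2.

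Over the members, the 8-cell libraries of a method differed from each other far more than those of later stages, and they differed together across the set. On the log2(normalized count + 1) scale the member median was 6.41, 7.83, 6.92 and 4.99 in IVF 8-cell replicates 1 to 4. Replicate 2 was the highest of the IVF 8-cell libraries for 96 of 106 members, whereas it was the highest for 31.1% of the 13216 genes with a mean of at least 10 in that group. Replicate 4 was the lowest for 90 members and for 27.4% of those genes. The ratio of the highest to the lowest IVF 8-cell library (each value plus 1) had a median of 9.79 over the members, against 1.46 in IVF morulae and 1.47 in IVF blastocysts.

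Just 2 members had their highest IVF 8-cell value in replicate 4. They were ENSBTAG00000019267, with 9.7, 216.5, 74.2 and 1158 in replicates 1 to 4, and ENSBTAG00000008114, with 40.2, 80.7, 86.5 and 110. The same 2 genes had the highest fibroblast medians of the set. ENSBTAG00000019267 held 17727, 21770, 1519 and 23136 in fibroblasts and ENSBTAG00000008114 held 3472, 3428, 318 and 2974, with replicate 3 the low library in each case. Both were named by the rule on fibroblast level, and their order within IVF 8-cell embryos was noticed afterwards.

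**Figure D2:**
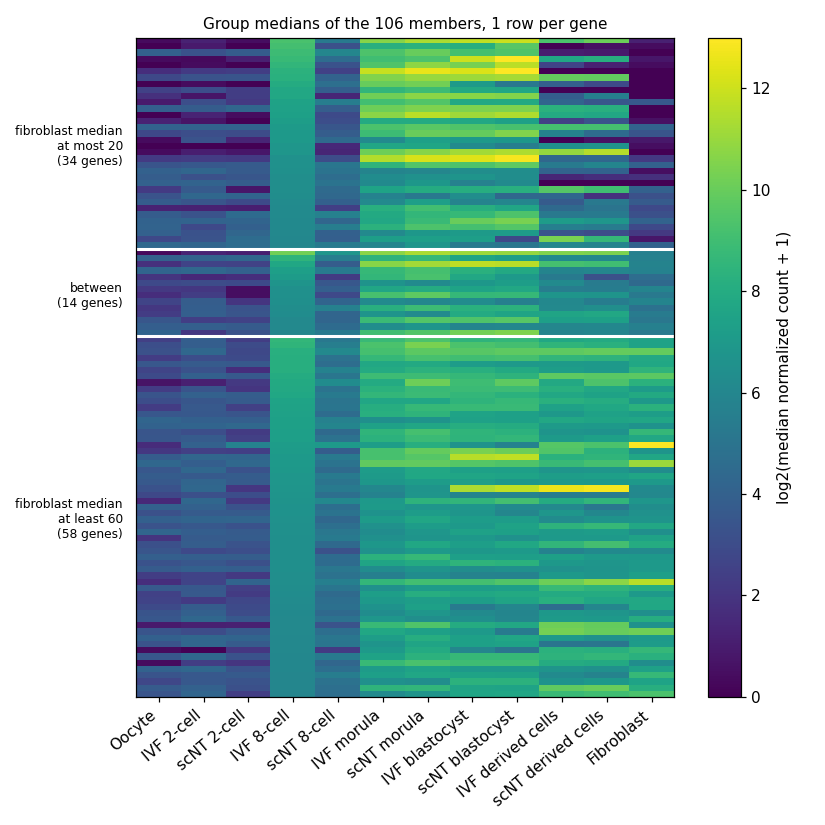
Group medians of the 106 members as log2(median normalized count + 1), 1 line per gene, in 12 groups, split by fibroblast median into at most 20 (34 genes), between (14 genes) and at least 60 (58 genes). Lines are dark in oocytes and IVF 2-cell embryos by the choice of members and also dark in scNT 2-cell embryos, scNT 8-cell embryos are darker than IVF 8-cell embryos, and the 2 later scNT stages are bright.

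The first question outside the choice was whether the set also came on at the 8-cell stage after nuclear transfer. In scNT 2-cell embryos the median over members was 8.03, and 100 of the 106 members were at or below 20. In scNT 8-cell embryos it was 25.4, with 34 members at or below 20, 66 between and 6 at 60 or more. The scNT 8-cell median was above the scNT 2-cell median for 101 members. The step was small beside the spread between libraries: the member median on the log2 scale was 2.78, 2.84, 4.10 and 3.17 in scNT 2-cell replicates 1 to 4 and 3.62, 5.68, 4.24 and 4.86 in scNT 8-cell replicates 1 to 4. In scNT 8-cell replicate 2, 40 members were at 60 or more, against 0, 7 and 17 in replicates 1, 3 and 4. Replicate 2 was the highest scNT 8-cell library for 83 members and the highest IVF 8-cell library for 96. Since same-numbered 8-cell libraries of the methods deviated together over all genes tested, scNT 8-cell values may not be wholly independent of the choice. Not every number went together within the set. Replicate 4 was the lowest IVF 8-cell library for 90 members and the lowest scNT 8-cell library for 21.

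Of the 74 members that passed the filter on low values, 4 rose and 0 fell from the scNT 2-cell to the scNT 8-cell stage with limma at a Benjamini-Hochberg adjusted p under 0.05. Over all 12425 genes tested, 0.821% rose and 4.86% fell. The log2 difference had a median of 1.26 over the 74 members and 0.03 over all genes tested. A further 32 members did not reach 10 in enough libraries to be tested, among them ENSBTAG00000002065, with 1.1, 620.5, 222 and 1.5 in scNT 8-cell replicates 1 to 4. Of the 74, 2 reached 10 in no library of one of the groups. An unadjusted p under 0.05 was found for 38 of the 74 and for 2584 of the 12425 genes. The count rested on the libraries and the tool: it was 22 without scNT 8-cell replicate 1, 12 without scNT 2-cell replicate 3, 8 without scNT 8-cell replicate 3, and 1 when scNT 2-cell replicate 1, 2 or 4 or scNT 8-cell replicate 2 was left out. DESeq2 on the recovered reads called 23 and edgeR 6, and 6 of the 164 members chosen without IVF 2-cell replicate 3 rose. Calls over all genes moved too. Without scNT 8-cell replicate 1, 282 of 12722 genes rose, without scNT 2-cell replicate 3, 193 of 12658, and without scNT 8-cell replicate 3, 209 of 12686. In the settings where 1 member rose, 47 to 52 genes did. DESeq2 called 504 of 12877 genes higher and edgeR 146 of 12803, against 102 of 12425 in the main test. With equal library totals the calls over all genes were 224 higher and 579 lower, against 102 and 604, and the median over all genes moved to 0.13, whereas 4 members rose as before.

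ENSBTAG00000008908 showed the largest such rise with no overlap. It held 13.5, 7.4, 23.6 and 14.6 normalized counts in scNT 2-cell embryos and 38, 75.4, 50.8 and 50.6 in scNT 8-cell embryos. The log2 difference was 1.85 ± 0.36 (SE; limma, adjusted p = 0.0109). ENSBTAG00000000054 went from 6.3, 10.7, 8.7 and 8.7 to 19.3, 76.2, 20.7 and 28.7, a log2 difference of 1.74 ± 0.44. Every scNT 8-cell library lay above every scNT 2-cell library in both genes, but replicate 2 stood well above the others for the second. That call was lost in 7 of the alternatives tried, where its adjusted p with limma lay between 0.0584 and 0.138.

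Between the scNT 8-cell embryo and the scNT morula nearly the whole set rose. The median over members went from 25.4 to 316, the scNT morula median was above the scNT 8-cell median for all 106 members, and 105 members stood at 60 or more in scNT morulae. All 106 members were tested, and 100 rose and 0 fell (limma, adjusted p under 0.05), where 31.2% of the 13702 genes tested rose and 37.7% fell. The median log2 difference was 3.67 over the members and -0.17 over all genes tested. The rise was larger in the 34 members with a fibroblast median of at most 20, at a median of 4.89, than in the 58 members with at least 60, at 3.23, a difference that was not tested. Leaving out a library gave between 88 and 101 members that rose, where 3916 to 4288 of all genes rose. Of the 164 members chosen without IVF 2-cell replicate 3, 139 rose and 0 fell.

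ENSBTAG00000016748 had the largest rise. It held 1.1, 94.3, 2.8 and 6.8 in scNT 8-cell embryos and 6119, 5491 and 6721 in scNT morulae, a log2 difference of 9.44 ± 1.17 (SE; limma). In IVF embryos the same gene was already at 367, 336, 320 and 3.2 at the 8-cell stage, so IVF 8-cell replicate 4 was within the range of the low scNT libraries. ENSBTAG00000019801 went from 5.1, 18.9, 6.6 and 7.5 to 4766, 4451 and 5606, a log2 difference of 9.03 ± 0.39. The groups did not overlap in either gene. In both genes only scNT 8-cell replicate 2 reached 10, so they passed the filter through the morulae and no p is given. At the other end, ENSBTAG00000019267 held 30.6, 644, 40.5 and 214 in scNT 8-cell embryos and 552, 285 and 112 in scNT morulae, groups that overlapped (limma, adjusted p = 0.364).

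**Figure D3:**
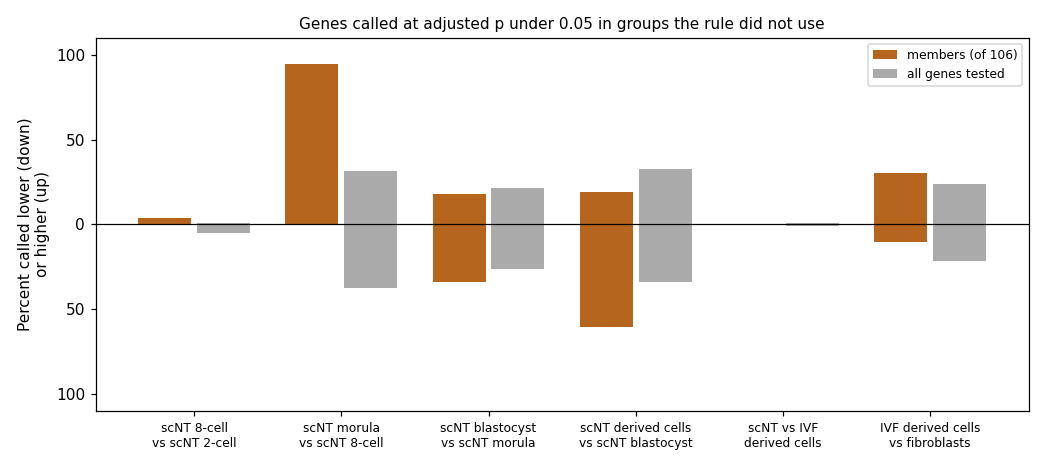
Percent of the 106 members (brown) and of all genes tested (grey) called higher (upward bars) or lower (downward bars) at a limma adjusted p under 0.05, in the 6 comparisons whose groups took no part in choosing the members. From scNT 8-cell embryos to scNT morulae 100 of the 106 members rose against 31.2% of all genes tested. Members low in scNT 8-cell embryos passed the filter on low values through the morulae. From scNT blastocysts to derived cells 64 of the 106 fell against 34.1%. Members low in scNT derived cells passed the filter through the blastocysts. Brown bars divide by all 106 members, so members that were not tested count as not called.

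From the scNT morula to the scNT blastocyst some members rose and more fell, as among all genes. The median over members was 316 in scNT morulae and 220 in scNT blastocysts, 84 of the 106 members kept a share of at least 0.5 of the morula median, and 95 members were at 60 or more. With limma, 19 members rose and 36 fell at an adjusted p under 0.05, where 21.6% of the 13236 genes tested rose and 26.1% fell. The median log2 difference was -0.26 over the members and -0.09 over all genes tested. With equal library totals 9 members rose and 56 fell, the calls over all genes were 1510 higher and 5693 lower against 2855 and 3460, and the medians were -0.66 for members and -0.49 for all genes. Of the 164 members chosen without IVF 2-cell replicate 3, 35 rose and 52 fell, and without scNT morula replicate 2 or scNT blastocyst replicate 1 the count of members that rose was 12. Over all genes, 2367 of 13671 rose without scNT morula replicate 2 and 2282 of 13129 without scNT blastocyst replicate 1.

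ENSBTAG00000040584 rose most. It held 92.2, 105 and 181 in scNT morulae and 4291, 1978, 2701 and 4547 in scNT blastocysts, a log2 difference of 4.72 ± 0.34 (SE; limma, adjusted p = 9.21e-05). The IVF values of that gene were 52.5 to 170 in morulae and 1599 to 3852 in blastocysts. ENSBTAG00000001545 went from 636, 336 and 1508 to 9252, 4039, 6825 and 12115 (log2 difference 3.44 ± 0.59, limma adjusted p = 0.00426). In both genes all scNT blastocysts lay above all scNT morulae, and at the 8-cell stage ENSBTAG00000001545 was at 2.3, 284, 43.3 and 0.8 in scNT embryos.

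Among members that fell, ENSBTAG00000046720 went from 1210, 827 and 1816 in scNT morulae to 24.9, 89.8, 47.5 and 12.7 in scNT blastocysts, a log2 difference of -5.11 ± 0.64 (SE; limma, adjusted p = 0.000927). It was kept in the set by IVF blastocyst values of 93, 133, 137 and 353, none of which overlapped the scNT values. ENSBTAG00000039693 went from 162, 79.7 and 165 to 5, 6.2, 6.1 and 19.1, a log2 difference of -3.87 ± 0.49. That gene was therefore close to its oocyte level of 3.5 to 12.9 in 3 of the 4 scNT blastocyst libraries, whereas IVF blastocysts held 175, 133, 78.7 and 201. Only scNT blastocyst replicate 4 reached 10, so the gene passed the filter through the morulae and no p is given. The other scNT blastocyst values were near the level of 3 reads.

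**Figure D4:**
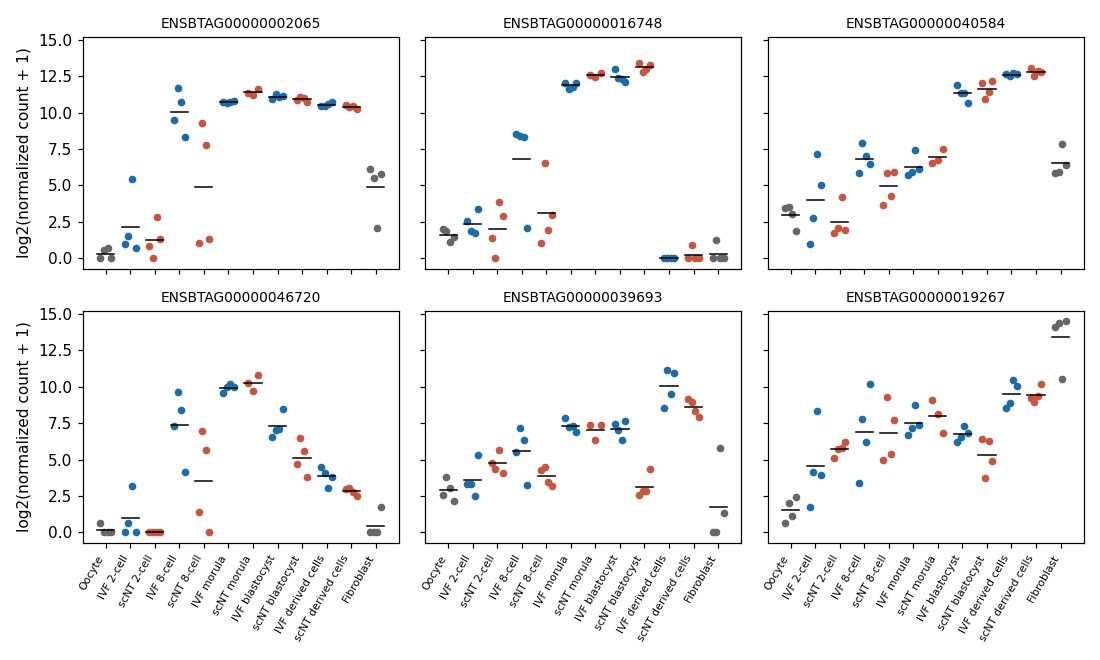
Values of 6 members as log2(normalized count + 1) in every library (IVF blue, scNT red, oocytes and fibroblasts grey), with a black bar at each group mean. ENSBTAG00000016748 falls to 0.9 or less in derived cells, ENSBTAG00000039693 stands at 19.1 or less in scNT blastocysts and at 244 or more in scNT derived cells, and ENSBTAG00000019267 is highest in fibroblasts.

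Set side by side with IVF embryos, the scNT embryos had less of the set at the 8-cell stage, more of it in morulae and about the same in blastocysts. These values are given as a description, because the IVF side of each took part in choosing the members, and a set chosen for a high IVF 8-cell level can lean towards lower scNT values there. The scNT 8-cell median was below the IVF 8-cell median for all 106 members and below a share of 0.5 of it for 95. The ratio of the scNT median to the IVF median was 0.233 at the median member in 8-cell embryos (quartiles 0.100 and 0.352), 1.43 in morulae (1.22 and 1.65) and 0.997 in blastocysts (0.859 and 1.16).

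The 8-cell libraries of the methods overlapped in nearly every member. All scNT libraries lay below all IVF libraries in 5 members and above them in 0, where 1.59% and 3.14% of the 13000 genes tested did so. Over all genes, members or not, limma called 0% at an adjusted p under 0.05, with 1642 genes at an unadjusted p under 0.05, edgeR called 0 genes and DESeq2 363. Same-numbered IVF and scNT 8-cell libraries deviated together, and with the replicate number as a block limma called 168 genes. Without IVF 8-cell replicate 4 it called 82.

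**Figure D5:**
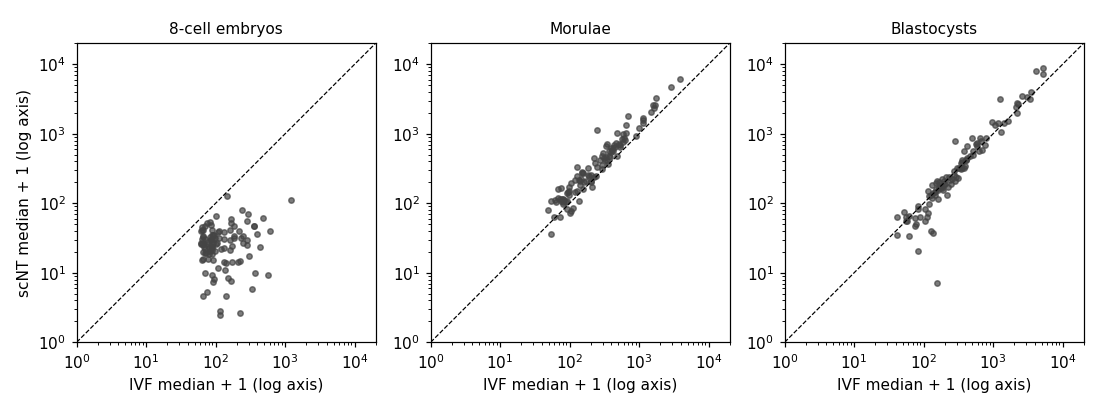
Median normalized count plus 1 of each of the 106 members in scNT embryos (vertical, log axis) against IVF embryos (horizontal, log axis) at the 8-cell, morula and blastocyst stages, with the line of equal values dashed. All 106 points lie under the line in 8-cell embryos, 10 lie under it in morulae and 54 in blastocysts.

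A like choice made on the scNT libraries alone gave a different and shorter list. With oocytes and scNT embryos in place of oocytes and IVF embryos, 72 genes came on at the scNT 8-cell stage and 31 of them were sustained to the scNT blastocyst. Of these 31 genes 5 were among the 106, a share of 16.1% of the scNT list and 4.72% of the IVF list. Over the 31 genes the median was 80.4 in scNT 8-cell embryos and 203 in IVF 8-cell embryos, and 3 of the 31 had an IVF 8-cell median below the scNT one. In 23 of the 31 the IVF 2-cell median was above 20, which kept them out of the IVF list.

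In morulae the scNT median was below the IVF median for 10 members and above 2 times it for 11. All scNT morulae lay above all IVF morulae in 51 members and below them in 1, where 17% and 18.9% of the 13590 genes tested did so. Of the 3 scNT morula libraries, replicate 4 was the highest for 77 members and for 41.7% of genes with a mean of at least 10.

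In blastocysts all scNT libraries lay above all IVF libraries in 8 members and below them in 8, where 6.04% and 8.02% of the 12607 genes tested did so. ENSBTAG00000021007 held 3217, 2887, 3202 and 4454 in scNT blastocysts against 1445, 984, 1254 and 1299 in IVF blastocysts. In scNT morulae it held 1732, 1788 and 2256 against 909, 577, 635 and 754 in IVF morulae, with no overlap at either stage. All scNT blastocyst values of ENSBTAG00000039693, given above, lay below the IVF ones.

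In cells derived from blastocysts part of the set was low. The median over members was 131 in IVF derived cells and 123 in scNT derived cells. At or below 20 stood 17 members in IVF derived cells, 16 in scNT derived cells and 15 (14.2%) in both, while 71 of the 106 members (67.0%) were at 60 or more in both. Among the 8777 genes at 60 or more in IVF and scNT blastocysts the share at or below 20 in both was 3.13% and the share at 60 or more in both was 89.4%. Those genes were not limited to low levels in oocytes and IVF 2-cell embryos, and members did not have to reach 60 in blastocysts. The shares are therefore not of like sets. From scNT blastocysts to scNT derived cells, 20 members rose and 64 fell (limma, adjusted p under 0.05), where 32.9% of the 12786 genes tested rose and 34.1% fell. The median log2 difference was -0.89 over the members and -0.03 over all genes tested, and 8 of the 64 that fell had passed the filter through blastocysts alone, so that a fall was the only change they could show. With equal library totals 21 members rose and 55 fell, the calls over all genes were 5290 higher and 3117 lower against 4207 and 4364, and the median over all genes was 0.26. Of the 164 members chosen without IVF 2-cell replicate 3, 34 rose and 88 fell.

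Among the members that fell, the largest changes ended at or near 0. ENSBTAG00000016748 held 10757, 7122, 8152 and 9834 in scNT blastocysts and 0, 0.9, 0 and 0 in scNT derived cells where 0.9 stands for 1 read. It was at 0 in all 4 libraries of IVF derived cells, after 4446 to 8138 in IVF blastocysts. ENSBTAG00000021007 went from 2887 to 4454 in scNT blastocysts to 2.6, 0, 0 and 2.9 in scNT derived cells. Both passed the filter only through blastocysts, so no p is given, and no fold is given because the lower group is at or under the level of 3 reads. ENSBTAG00000000060 was another member near 0 in derived cells, with 182 to 263 in IVF blastocysts, 0 in every IVF derived-cell library and 0, 0, 1.2 and 0 in scNT derived cells.

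Of the members that rose, the 2 with the largest change were higher in all derived-cell libraries than in any embryo library. ENSBTAG00000039693 rose from 5, 6.2, 6.1 and 19.1 in scNT blastocysts to 580, 492, 325 and 244 in scNT derived cells, a log2 difference of 5.46 ± 0.40 (SE; limma). Only scNT blastocyst replicate 4 reached 10 for this gene, so it passed the filter through the derived cells and no p is given. Its level in IVF derived cells was 378, 2315, 722 and 1939, a wide spread that reached down into the scNT range. ENSBTAG00000015163 rose from 11.6, 37.2, 87.4 and 41.9 to 1422, 404, 1150 and 890, a log2 difference of 4.58 ± 0.62 (limma, adjusted p = 0.000294). It also had the highest ratio of derived cells to IVF blastocysts in the set, with 1057 to 1619 in IVF derived cells against 103 to 199 in IVF blastocysts, and its fibroblast level of 808 to 1341 was of the same order.

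No member passed the main test between the derived cells of the 2 methods. Of the 95 members tested, limma called 0 higher and 0 lower in scNT at an adjusted p under 0.05, where 0.638% of the 12390 genes tested were higher and 0.702% lower. At an unadjusted p under 0.05 there were 18 of the 95 members and 1651 of the 12390 genes, edgeR called 0, and DESeq2 called 5 higher and 3 lower. With the replicate number as a block limma called 3 members higher and 2 lower. Over all genes DESeq2 called 221 of 12420 higher and 237 lower, and the block 149 of 12390 higher and 153 lower. The median log2 difference was -0.03 over the members and 0.00 over all genes tested. All scNT libraries lay above all IVF libraries in 9 of the 106 members and below them in 6, and 4.35% and 4.16% of genes did so. Of the 164 members chosen without IVF 2-cell replicate 3, 2 were called higher and 1 lower.

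Fibroblasts had part of the set off and part of it on. The fibroblast median was at or below 20 for 34 members (32.1%), between for 14 and at least 60 for 58 (54.7%). Of the 8777 genes at 60 or more in both kinds of blastocyst, 8.09% were at or below 20 in fibroblasts and 84.7% at 60 or more. All 15 members that were at or below 20 in both kinds of derived cells were among the 34, and 52 of the 58 members on in fibroblasts were also on in both kinds of derived cells.

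The 34 members low in fibroblasts and the 58 members on there took different courses in embryos and cultured cells. In the 34, the median was 122 in IVF 8-cell embryos, 339 in IVF morulae and 349 in IVF blastocysts, then 20.2 in IVF derived cells. Their scNT medians were 15.8 in 8-cell embryos, 586 in morulae, 625 in blastocysts and 34.2 in derived cells. In the 58, the median was 183 in fibroblasts themselves, 95.9, 153 and 190 in IVF 8-cell embryos, morulae and blastocysts and 196 in IVF derived cells, while scNT 8-cell embryos had 29.6, scNT morulae 230, scNT blastocysts 198 and scNT derived cells 184. In scNT 8-cell embryos, then, the 58 members had a median below that of the fibroblasts as well as below that of IVF 8-cell embryos. From scNT blastocysts to scNT derived cells 28 of the 34 fell and 4 rose, with a median log2 difference of -3.96, whereas 25 of the 58 fell and 16 rose, with a median of -0.29. The difference between the kinds was not tested.

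IVF derived cells and fibroblasts were compared as groups that had no part in the choice. Of the 93 members tested, 32 were higher and 11 lower in IVF derived cells (limma, adjusted p under 0.05), where 23.6% of the 12728 genes tested were higher and 21.9% lower. The median log2 difference was 0.46 over the members and 0.04 over all genes tested. Of the 32, 7 reached 10 in no fibroblast library, so that they could only be higher in IVF derived cells. On equal library totals the counts were 39 and 10 and the median over all genes was 0.22. Calls over all genes were then 3597 higher and 2269 lower, against 3002 and 2782 in the main test. Without fibroblast replicate 3 the counts were 42 and 17, and calls over all genes also grew, to 4077 higher and 3851 lower of 13121. Of the 164 members chosen without IVF 2-cell replicate 3, 54 were higher and 22 lower.

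ENSBTAG00000034323 and ENSBTAG00000011736 led the members higher in IVF derived cells. The first held 0, 0.7, 0 and 0 in fibroblasts and 1391, 1874, 2359 and 2063 in IVF derived cells, and the second 0, 1.4, 0 and 0 against 911, 1140, 962 and 997. Both passed the filter only through IVF derived cells, so no p is given, and fibroblast levels were under that of 3 reads, so no fold is given. In scNT derived cells the same genes held 2374 to 3700 and 834 to 1055, so both stayed on in culture by either method.

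Among the members lower in IVF derived cells, ENSBTAG00000019267 held 372, 484, 1389 and 1058 there against 17727, 21770, 1519 and 23136 in fibroblasts, a log2 difference of -3.91 ± 0.89 (SE; limma, adjusted p = 0.00718). Fibroblast replicate 3 came close to the highest derived-cell library without overlap. ENSBTAG00000005454 held 24.8, 22.3, 36 and 15.1 against 203, 209, 214 and 280.5, a log2 difference of -3.21 ± 0.28 (limma, adjusted p = 3.34e-05). In blastocysts that gene held 22.3 to 49 in IVF and 54.6 to 68.1 in scNT, with no overlap.

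The member with the highest fibroblast median also had the highest median of the set in scNT 2-cell embryos. ENSBTAG00000019267 held 34, 52.5, 55.8 and 73.5 there, against 0.6 to 4.4 in oocytes and 2.4, 17.2, 330.2 and 14.1 in IVF 2-cell embryos. The scNT values lay above those of all oocytes and of all IVF 2-cell libraries but replicate 3. It was 1 of the 6 members with a scNT 2-cell median above 20.

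Against the 92 genes that came on at the IVF 8-cell stage and were not sustained, the 106 had higher medians in fibroblasts and derived cells. Of the 92, 72 were below a share of 0.5 of the 8-cell median in IVF morulae, 89 in IVF blastocysts and 69 in both, which is how they were told from the 106. The median over the 92 was 0.35 in fibroblasts and 0.45 in IVF derived cells, where the 106 had 82.2 and 131. In scNT 8-cell embryos, where no part of the choice was made, the 92 had a median of 28.4 and the 106 one of 25.4, after 160 and 97.6 in IVF 8-cell embryos, so the lists did not start from the same level. Of the 92, 26 (28.3%) reached 60 there, against 6 (5.66%) of the 106, and 30 (32.6%) were at or below 20, against 34 (32.1%). In scNT morulae and blastocysts the 92 had medians of 53.7 and 3.55, against 316 and 220 for the 106. The difference between the lists was not tested.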

How the data were processed

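Per the submitters' processing notes the tools were FastQC, MultiQC, STAR and DESeq2 and the build UMD3.1; roles, versions, annotation and counter were not given in the sources used here. What the authors deposited was a normalized signal, a read count per gene and library divided by a factor of that library, as the steps in the values show. Per the labels' protocols, RNA over 200 nt was amplified by several rounds of PCR, and no use of molecular identifiers was found in the labels, so depth covers counting error only. In the library with the lowest share 99.7% of values above 0 were whole multiples of 1 step (tolerance 0.05; at most 21.0% by chance), which gave recovered reads for 46 libraries; fibroblast replicate 1, with a step of 1.01, took no part in count tests. Chi-square divided by its degrees of freedom was 7.32 or more in all 66 replicate pairs, so none differed as little as sampling noise.

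The members and lists were chosen with earlier results of these data known. A gene was tested if it had a value of 10 or more in at least the number of libraries of the smaller group. The test was limma 3.58.1 (trend, robust; R 4.3.3) on log2(value + 1), which understates changes of low genes, over the 2 groups compared and two-sided, with Benjamini-Hochberg adjustment over all genes tested and calls at an adjusted p under 0.05. It was also run on simulated counts in which only genes of a higher mean were changed. Most members were below that mean in scNT 2-cell and 8-cell embryos, so the run says little about calls there. Alternatives were other pseudocounts, filters, scalings and limits of the choice, edgeR 4.0.16, DESeq2 1.42.0, a replicate block and leaving out each library. Same-numbered IVF and scNT 8-cell libraries deviated together (correlations 0.37, 0.55, 0.56 and 0.23). They were taken as pairs in the replicate block only, a pairing that comes from the data, and the main test used no pairs. Counts of members called between scNT and IVF at the 8-cell, morula and blastocyst stages were planned and computed but are not reported, because the IVF libraries chose the members. Identifiers printed were at most 2 per direction and comparison, those with the largest change and no overlap, besides those with extreme levels or ratios. The 23 named gene lists, 7 of them of cell type markers, matched 0 identifiers and were not used. The rule of the set bars 9 identifiers.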

Additional observations from a re-analysis of the deposited data

Results flagged for a closer look

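A library was singled out where it stood apart from the other 3 of its group, which chance does in about 1 in 20 groups; 11 of the 51 group values checked did so. Over the whole set, IVF blastocyst replicate 4 had a median log2 level of 8.24, against 7.87 to 7.91 in the other IVF blastocysts. The members' percent of the library total was 0.165 in fibroblast replicate 3 (others 0.380 to 0.404), 0.0845 in IVF 2-cell replicate 3 (others 0.00737 to 0.0167) and 0.0223 in scNT 2-cell replicate 3 (others 0.00918 to 0.0107). The 2-cell libraries numbered 3 were the shallowest of their groups, at 5939973 and 6680061 recovered reads, and the part of depth in these values was not tested.

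Single members stood apart in scNT 8-cell replicate 2, where ENSBTAG00000000054 held 76.2 (others 19.3 to 28.7) and ENSBTAG00000016748 held 94.3 (others 1.1 to 6.8). ENSBTAG00000039693 held 19.1 in scNT blastocyst replicate 4 (others 5 to 6.2), and ENSBTAG00000005454 held 280.5 in fibroblast replicate 4 (others 203 to 214). The remaining values stood for 1 or 2 reads where the other libraries had 0: 0.9 for ENSBTAG00000016748 in scNT derived cells replicate 2, and 0.7 for ENSBTAG00000034323 and 1.4 for ENSBTAG00000011736 in fibroblast replicate 2.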

How the results depend on the processing

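Counts of members are given as higher and lower. With the replicate block the counts were 2 and 0 for scNT 8-cell against 2-cell embryos, 12 and 21 for scNT blastocysts against morulae and 3 and 2 for scNT against IVF derived cells. Over all genes the block called 43 and 280, 1691 and 2115, and 149 and 153 in these comparisons. The main test called 102 and 604, 2855 and 3460, and 79 and 87. Where scNT morulae took part, the block left out replicate 1 of the other group. The labels give the samples compared only a number in common. Outside 8-cell embryos across methods, not every library correlated best with its own number. Between derived cells of the 2 methods, replicates 1, 2 and 4 did so (correlations 0.08, 0.43 and 0.29). There the block called 302 genes, against 166 without it. DESeq2 gave 23 higher for scNT 8-cell against 2-cell embryos and 5 and 3 for derived cells across methods. Over all genes it called 504 higher in the former comparison and 221 and 237 in the latter. Equal library totals gave 9 and 56 for scNT blastocysts against morulae. Without a filter 1 member was lower in scNT derived cells.

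Leaving out each library gave 1 to 22 higher and 0 lower for scNT 8-cell against 2-cell embryos, 88 to 101 and 0 for scNT morulae against 8-cell embryos, 12 to 20 and 26 to 38 for scNT blastocysts against morulae, and 18 to 20 and 61 to 65 for scNT derived cells against blastocysts. It gave 0 and 0 to 1 across methods in derived cells and 28 to 42 and 10 to 17 for IVF derived cells against fibroblasts. Calls over all genes moved too, from 47 to 282 higher for scNT 8-cell against 2-cell embryos. For IVF derived cells against fibroblasts they ran from 2565 to 4077 higher and from 2257 to 3851 lower. edgeR and DESeq2 were not run on IVF derived cells against fibroblasts, since fibroblast replicate 1, with a step of 1.01, was set aside from count tests.

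The calls for members chosen without IVF 2-cell replicate 3, and the choice on scNT libraries, were added after seeing the data. The former gave 35 higher for scNT blastocysts against morulae, 34 for scNT derived cells against blastocysts, 2 and 1 for derived cells across methods, and 54 and 22 for IVF derived cells against fibroblasts. The number of members was 59 with means in place of medians, 191 and 52 at 8-cell limits of 40 and 100, 40 at a limit of 10 in oocytes and IVF 2-cell embryos, 164 and 159 without IVF 2-cell replicate 3 and 4, and 31 on scNT libraries. Of the alternative values of the members named, 250 kept direction and call and 7, all of ENSBTAG00000000054 at the scNT 8-cell stage, lost the call.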
